A study of Mus musculus with 4 samples.

Results

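Expression of 10 osteoclast differentiation genes was examined in bone marrow macrophages that met necrotic fat. The genes were Tnfrsf11a, Nfatc1, Oscar, Calcr, Ocstamp, Dcstamp, Itgb3, Acp5, Ctsk and Car2. They were chosen by name for their roles in RANK signalling, cell fusion, adhesion and bone resorption, with earlier results of these data known. All 10 were found among the 17013 genes listed in the deposited values. Macrophages were grown from the femur and tibia marrow of wild-type (WT) male C57BL/6 mice in M-CSF, and were plated on porous inserts over freeze-thawed abdominal fat for 24 h. Cells of both groups received artificial necrotic bone fluid (aNBF), a freeze-thaw extract of bone that carries damage signals. Con, the control medium, came from the middle layer of this fat preparation. Fat, the medium high in fat, came from its top layer. There were 2 libraries in each group, and the sources used here do not say whether they came from separate animals or cultures. P-values therefore measure the spread between these libraries, which may be technical. The culture methods name M-CSF but no RANK ligand, and the age of the mice and the number pooled are not given.

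Osteoclasts are giant cells that dissolve bone, and they arise when macrophage precursors fuse. M-CSF keeps the precursors alive, and RANK ligand acts on its receptor RANK to switch on NFATc1, the master transcription factor of the lineage. Immunoreceptors that carry ITAM motifs, OSCAR among them, add a calcium signal that sustains NFATc1. The fused cell then seals itself to bone through the alpha v beta 3 integrin and secretes acid and the protease cathepsin K.

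The 4 libraries held between 33573852 and 40785872 reads, recovered from the deposited CPM (reads scaled to a common library size). Each read was worth 0.0244 to 0.0295 CPM. Where 2 values of a group are given, replicate 1 comes first. Macrophage markers were present in every library, with all 8 listed markers read in both groups. Of these, Fcgr1 and Mertk were called lower in Fat and none higher. Levels of different genes are compared below only as TPM, a like scale that also takes gene length into account.

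Of the 10 genes, 8 were clearly read in both media and Oscar and Calcr were not. In Con, Acp5, which encodes the tartrate-resistant acid phosphatase TRAP, stood highest at 302.7 ± 41.9 TPM (SD, n = 2). It was followed by Ctsk, the gene of cathepsin K, at 139.0 ± 17.0 TPM and by the fusion gene Dcstamp at 66.8 ± 5.36 TPM. Lower levels were held by Tnfrsf11a (27.7 ± 0.349 TPM), Ocstamp (13.9 ± 0.963 TPM), Nfatc1 (12.05 ± 0.661 TPM), Itgb3 (8.25 ± 0.0633 TPM) and Car2 (6.28 ± 1.11 TPM). The 2 Con libraries of each of these genes lay apart from those of its neighbours in this order. In Fat the order was the same except that Car2, at 17.8 ± 2.69 TPM, moved above Nfatc1 and Itgb3. Its Fat libraries overlapped those of Ocstamp (19.8 ± 1.43 TPM), which was the only pair of neighbours to overlap in either medium. Oscar was at 0.134 TPM in Con and 0.0600 TPM in Fat, and Calcr at 0.0167 and 0 TPM. Among all listed genes, the mean TPM of Acp5 in Con was higher than that of 97.6% of genes, and that of Nfatc1 higher than that of 57.2%.

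**Figure D1:**
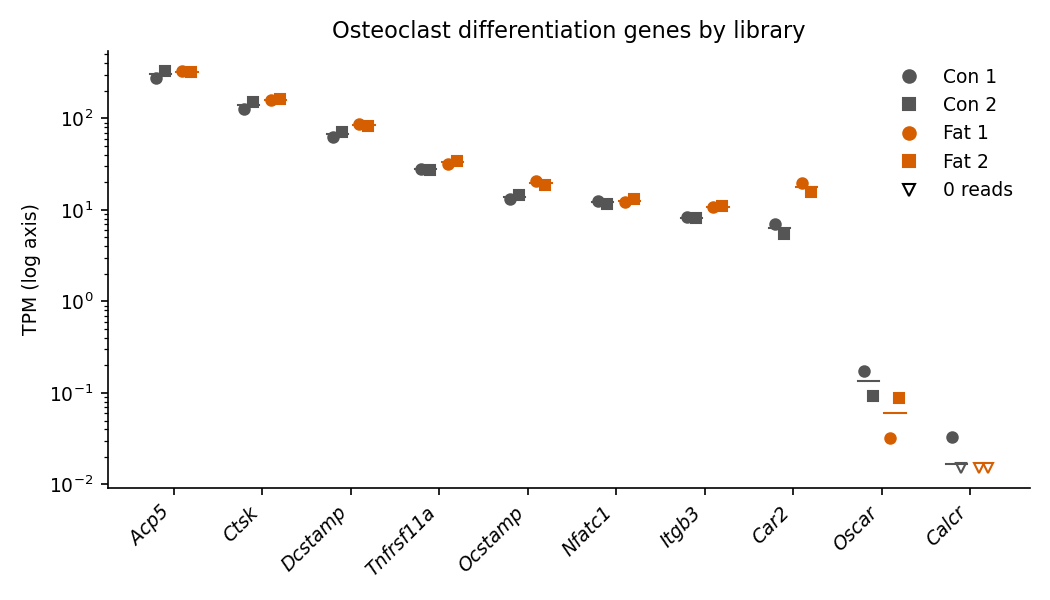
TPM of the 10 osteoclast genes in each library on a log axis, ordered by the Con mean, with Con in grey and Fat in orange, circles for replicate 1, squares for replicate 2 and a line at each group mean. Open triangles mark libraries with 0 reads. Levels run from 302.7 TPM for Acp5 down to 6.28 TPM for Car2 in Con, and Oscar and Calcr lie far below them.

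Fat and Con were compared by two-sided limma tests of log2(CPM + 0.1). The filter asked for 0.5 CPM or more in 2 or more libraries, which 12470 genes met, and p-values were adjusted over these by the Benjamini-Hochberg method. A gene was called at an adjusted p-value under 0.05. Fold changes are given on the log2(CPM + 0.1) scale. Of the 10 osteoclast genes, 8 passed this filter with at least 4.58 CPM in every library, and Oscar and Calcr did not reach it in any library. Of the 8, 4 rose in Fat (Car2, Ocstamp, Itgb3 and Dcstamp), 0 fell, and 4 were not called. Among all tested genes, 3.99% were called higher and 5.0% lower. By limma at an unadjusted p-value under 0.05, 5 of the 8 were higher and 0 lower, against 11.8% and 12.4% of all tested genes. On the recovered reads, edgeR and DESeq2 each called 4 higher and 0 lower. The median log2 fold change of the 8 was 0.27, against 0.01 over all tested genes. In 6 of the 8 genes both Fat libraries lay above both Con libraries, a pattern seen in 29.4% of all tested genes. With 2 libraries a group, the smallest two-sided p-value an exact permutation test allows for a single gene is 0.333. Without limma's mean-variance trend, 0 of the 8 were called, and 31 genes in all. Without Con replicate 1 only Car2 was called, and without Fat replicate 1 the calls were Itgb3 and Car2. Without Fat replicate 2 they were Ocstamp and Car2, and without Con replicate 2 Ctsk was called as well, 5 in all.

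**Figure D2:**
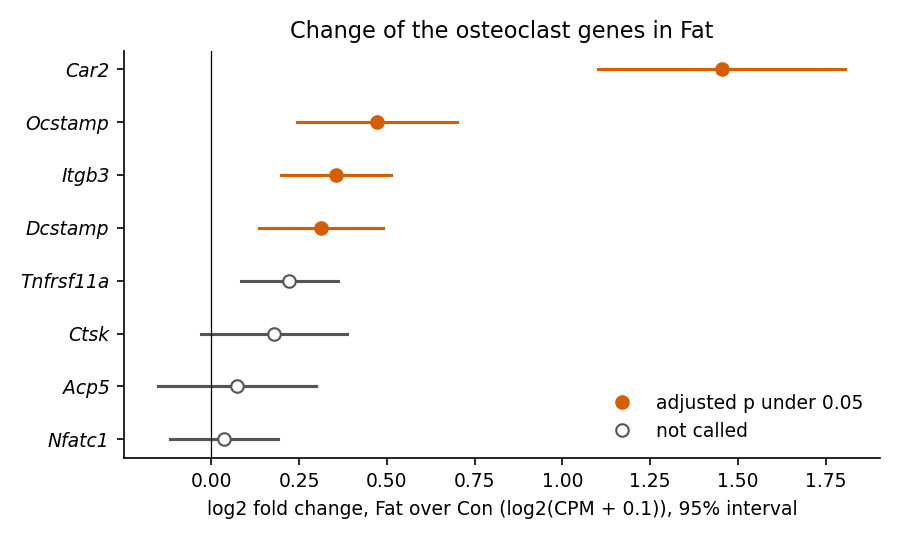
Log2 fold change of Fat over Con for the 8 osteoclast genes that passed the filter, with 95% limma intervals, filled where the adjusted p-value was under 0.05. Car2 stands at 1.45 and the 3 other called genes between 0.31 and 0.47, while the intervals of Ctsk, Acp5 and Nfatc1 cross 0.

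RANK, the receptor that starts the program, is encoded by Tnfrsf11a. Tnfrsf11a measured 64.2 and 64.3 CPM in Con against 72.4 and 77.5 CPM in Fat. Both Fat libraries lay above both Con libraries. Fat minus Con was 0.22 on the log2 scale (limma adjusted p = 0.061, standard error 0.06), so Tnfrsf11a was not called. Omitting any 1 library gave values between 0.17 and 0.27. Its ligand gene Tnfsf11 measured 2.12 and 1.87 CPM in Con against 2.09 and 2.34 CPM in Fat, from 70 to 96 reads a library. The groups overlapped, and the difference was not called (log2 fold change 0.15, limma adjusted p = 0.67). Tnfrsf11b encodes osteoprotegerin, the decoy receptor that captures RANK ligand. It measured 1.15 and 1.76 CPM in Con against 0.831 and 1.0 CPM in Fat, with a log2 fold change of -0.59 that was not called (limma adjusted p = 0.231, 95% interval -1.21 to 0.03). Per length, Tnfrsf11a stood 13.5 to 15.4 times above Tnfsf11 in the 4 libraries. Tnfsf11 is also known in fibroblasts and mesothelium. Markers of these cells summed to between 512.5 and 656.5 CPM in the 4 libraries, Col1a2 being the most abundant. Of the mesothelial markers, Upk3b had 0 and 0 reads in Con and 1 and 1 in Fat, and Msln was not listed. The part of these cells in the Tnfsf11 reads was not tested.

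Nfatc1 measured 42.5 and 40.1 CPM in Con against 41.0 and 43.7 CPM in Fat. The groups overlapped, and the difference was smaller than the gap between replicates. Fat minus Con was 0.04 on the log2 scale (limma adjusted p = 0.784, standard error 0.07), with a 95% interval from -0.12 to 0.19. Omitting any 1 library gave values between -0.01 and 0.08, below 0 without Con replicate 2 and without Fat replicate 2. The 3 genes whose centred log2 values over the 4 libraries lay nearest to those of Nfatc1 were Adck5, Hnrnpul2 and Rabif. Their Euclidean distances were 0.0195, 0.0198 and 0.02, against a median of 0.209 over all other tested genes. Genes picked as nearest among all tested genes over 4 libraries are close by selection, and a link to Nfatc1 was not tested.

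Oscar encodes an ITAM-linked receptor that NFATc1 is known to induce in osteoclasts. Oscar was covered by 5 and 3 reads in Con against 1 and 3 in Fat. Of its 12 reads, 4 (33.3%, exact Clopper-Pearson 95% interval 9.92% to 65.1%) were in Fat, which held 52.3% of all reads, so a difference was not detectable at this depth. Calcr, the gene of the calcitonin receptor that marks mature osteoclasts, had 2 reads in Con replicate 1 and 0 in the other libraries. A count of 0 in the 78320437 Fat reads allows a level of up to 0.0383 CPM, before the deposited scaling. The interval and the limit reflect counting error alone, and copies of 1 molecule made by PCR would count as several reads.

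Promoter sequence was matched in RefSeq (build GRCm38.p6, while the labels give GRCm39 for the reads) for 5 of the 10 genes, with 8 annotated start sites. The 250 bases upstream of each start were searched on both strands for the core letters of NFAT sites, GGAAA, and of AP-1 sites, TGANTCA, the binding site of Fos and Jun proteins. GGAAA was found at 5 of the 8 start sites, in Oscar, Calcr and Acp5, and in 55.6% of 32851 windows of all genes. TGANTCA was found at 0 of the 8 and in 6.75% of all windows. The windows below are those of the receptor RANK and of a gene read at high and a gene read at very low level among genes known as NFATc1 targets. Capitals mark GGAAA or its reverse complement TTTCC, 5′ to 3′ toward the start site.
Tnfrsf11a (chr1:105780473-105780722, plus strand): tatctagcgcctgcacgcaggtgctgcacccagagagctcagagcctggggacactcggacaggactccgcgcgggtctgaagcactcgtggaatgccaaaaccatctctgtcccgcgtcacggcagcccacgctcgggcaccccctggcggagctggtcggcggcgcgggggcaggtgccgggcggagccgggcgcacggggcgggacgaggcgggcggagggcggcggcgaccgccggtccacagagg
Oscar (chr7:3616158-3616407, minus strand): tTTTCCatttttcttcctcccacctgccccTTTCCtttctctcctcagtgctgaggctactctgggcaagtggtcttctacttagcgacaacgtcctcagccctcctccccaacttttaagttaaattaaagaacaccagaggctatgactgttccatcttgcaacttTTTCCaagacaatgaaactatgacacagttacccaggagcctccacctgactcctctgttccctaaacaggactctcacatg
Ctsk (chr3:95498960-95499209, plus strand): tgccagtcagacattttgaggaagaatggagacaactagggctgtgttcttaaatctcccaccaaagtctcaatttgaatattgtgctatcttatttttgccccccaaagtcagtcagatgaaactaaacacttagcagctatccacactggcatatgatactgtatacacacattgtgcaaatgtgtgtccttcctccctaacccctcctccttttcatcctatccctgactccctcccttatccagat
The Oscar window held 3 such matches, beginning 249, 220 and 82 bases upstream of the start, and the Ctsk and Tnfrsf11a windows held 0. The 3 windows of Acp5, the gene with the highest level of the 10, are not printed and held 1, 1 and 2 matches. A match of these letters is a description of the window and not a binding site.

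Both fusion genes rose in Fat. Dcstamp and Ocstamp encode related multi-pass membrane proteins that precursors need to fuse. Ocstamp measured 11.9 and 13.3 CPM in Con against 18.4 and 16.6 CPM in Fat. Both Fat libraries lay above both Con libraries, and the smaller Fat value was 1.25 times the larger Con value. Fat exceeded Con by 0.47 on the log2 scale (limma adjusted p = 0.0268, standard error 0.10). Dcstamp measured 59.1 and 67.6 CPM in Con against 80.6 and 76.6 CPM in Fat. Its groups did not overlap either, a difference of 0.31 on the log2 scale (limma adjusted p = 0.0447, standard error 0.08). Per length, Dcstamp stood 4.75 and 4.83 times above Ocstamp in Con and 4.17 and 4.39 times above it in Fat. The Dcstamp call was lost without Con replicate 1 (adjusted p = 0.145), without Fat replicate 1 (0.128), without Fat replicate 2 (0.085), without the filter (0.0559) and when a mean of 5 CPM was required (0.0519), all by limma. That of Ocstamp was lost without Con replicate 1 (limma adjusted p = 0.094) and without Fat replicate 1 (0.0897).

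Itgb3, the gene of the integrin beta 3 chain that pairs with alpha v in the osteoclast sealing zone, rose as well. Itgb3 measured 21.9 and 22.1 CPM in Con against 27.8 and 28.6 CPM in Fat. The gap between replicates was small beside the gap between groups. Fat exceeded Con by 0.36 on the log2 scale (limma adjusted p = 0.0207, standard error 0.07). The limma adjusted p was 0.0638 without Con replicate 1 and 0.101 without Fat replicate 2. Its partner chain Itgav measured 142.1 and 134.8 CPM in Con against 187.2 and 194.2 CPM in Fat, a log2 fold change of 0.46 (limma adjusted p = 0.00514). Both chains of the integrin were thus higher in both Fat libraries, and per length Itgav stood between 4.998 and 5.57 times above Itgb3.

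Of the 3 resorption genes, Car2 rose in Fat, and Acp5 and Ctsk were not called. Car2, which encodes carbonic anhydrase II, the enzyme that supplies protons for acid secretion, measured 5.78 and 4.58 CPM in Con against 15.9 and 12.8 CPM in Fat. The smaller Fat value was 2.22 times the larger Con value. Fat exceeded Con by 1.45 on the log2 scale (limma adjusted p = 0.00357, standard error 0.15), or 2.74-fold, and Car2 ranked 40 by p-value in that direction. The difference lay between 1.29 and 1.62 when any 1 library was omitted, and Car2 was called each time. Without the mean-variance trend the limma adjusted p was 0.0831.

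Acp5 measured 201.7 and 250.3 CPM in Con against 239.0 and 233.9 CPM in Fat. Both Fat values lay between the Con values, and the log2 fold change of 0.07 was not called (limma adjusted p = 0.692, 95% interval -0.15 to 0.30). Without Con replicate 1 it was -0.08. Of the 75-base windows of Acp5, 4.63% are also found on the opposite strand, in 6530413G14Rik. Ctsk measured 91.9 and 111.4 CPM in Con against 113.3 and 115.8 CPM in Fat. Both Fat libraries lay above Con, but Con replicate 2 was within 1.02 times of the smaller Fat value. The log2 fold change of Ctsk was 0.18 (limma adjusted p = 0.272, 95% interval -0.03 to 0.39). Ctsk was called without Con replicate 2 (log2 fold change 0.32, limma adjusted p = 0.0193), and its log2 fold change was 0.04 without Con replicate 1. Per length, Acp5 stood between 1.98 and 2.20 times above Ctsk in the 4 libraries. Ctsk stood 18.0 and 27.5 times above Car2 in Con, and 8.07 and 10.2 times above it in Fat. The genes with the profiles nearest to that of Ctsk were Dap, Ghdc and Cd151 (Euclidean distances 0.0231, 0.0245 and 0.0267, median over all other tested genes 0.317). They too are close by selection, and a link to Ctsk was not tested.

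Reads of adipocyte marker genes differed between the media as well. Whether they came from adipocytes or from the macrophages was not tested. The 9 adipocyte markers summed to 6 and 7 reads in Con against 422 and 245 in Fat, with 4 of the 9 at 0 in both Con libraries. The most abundant was Car3, a carbonic anhydrase gene of adipocytes, with 1 and 1 reads in Con and 269 and 139 in Fat. Car2 had 196 and 172 reads in Con and 593 and 526 in Fat. Whether RNA of fat cells took part in the Car2 rise was not tested. Red cells are another known source of Car2, and the 3 listed erythroid markers (of 8 sought) summed to between 3 and 8 reads a library, with Hba-a1 and Car1 at 0 or 1. In bulk samples, more cells of a type and more RNA per cell cannot be told apart. The 6 osteoblast markers, mostly Runx2, summed to 14.6 and 14.0 CPM in Con and to 17.0 and 19.3 CPM in Fat, higher in both Fat libraries, and Runx2 was not called (limma adjusted p = 0.0676). The 5 endothelial markers, mostly Vwf, summed to 40.6 and 40.1 CPM in Con and to 33.4 and 36.4 CPM in Fat. Vwf was called lower (limma adjusted p = 0.0289). Pecam1, Kdr and Tek were instead higher in both Fat libraries. Pecam1 (log2 fold change 0.47, limma adjusted p = 0.237) and Kdr were not called, and Tek did not pass the filter. The 6 lymphocyte markers summed to 26.7 and 25.2 CPM in Con and to 19.9 and 23.4 CPM in Fat, lower in both Fat libraries. The 5 listed neutrophil markers summed to 293.5 and 256.7 CPM in Con and to 251.5 and 256.6 CPM in Fat. The fibroblast gene Dcn was called lower (limma adjusted p = 0.0358). The part of these cells in the osteoclast genes was not tested.

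**Figure D3:**
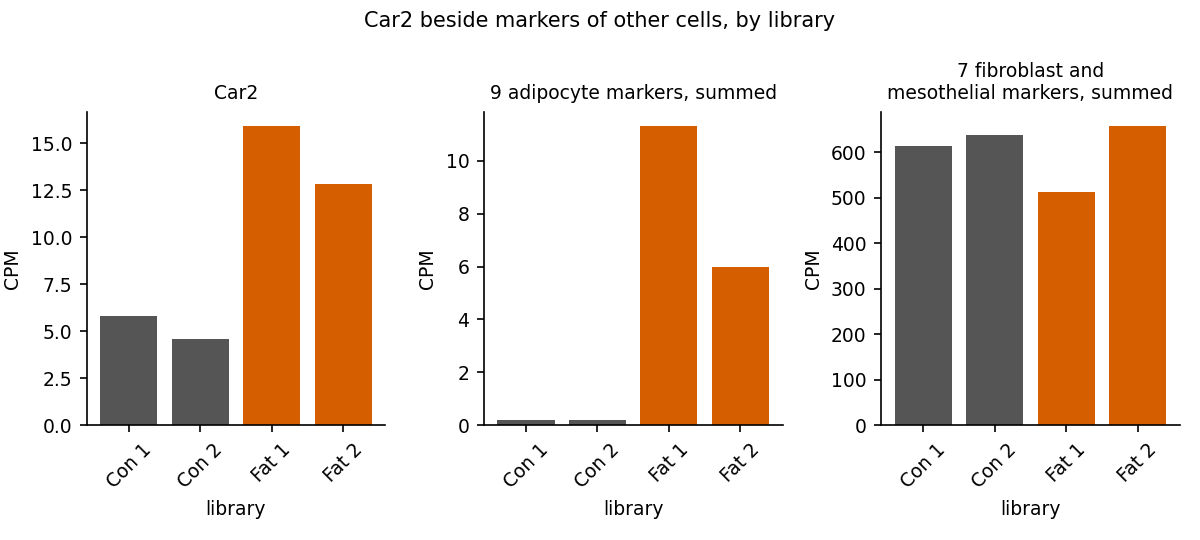
CPM in each library of Car2, of 9 adipocyte markers summed and of 7 fibroblast and mesothelial markers summed, with Con in grey and Fat in orange and 1 bar a library. Car2 and the adipocyte sum are higher in both Fat libraries, the latter at 11.3 and 5.98 CPM against 0.177 and 0.187 CPM in Con, and the fibroblast sums of the groups overlap.

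A wider list of 98 genes of the osteoclast pathway was read in 8 roles. Of these 97 were listed and 94 passed the filter, of which 8 rose in Fat and 4 fell. These are 8.51% and 4.26% of the genes, against 3.99% and 5.0% of all tested genes. The median log2 fold change was -0.01. Without the mean-variance trend 0 of the 94 were called. The counts at an unadjusted p-value given below for each role stand against 24.1% of all tested genes, 11.8% higher and 12.4% lower. In 22 genes both Fat libraries lay above both Con libraries, and in 31 below, against 29.4% and 26.2% of all tested genes.

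Of the 20 genes of ligands and RANK signalling, 0 were called in either direction by limma, edgeR or DESeq2, and by limma at an unadjusted p-value under 0.05, 3 were lower and 0 higher. Nfkb1 and Relb, subunits of the NF-kB factor that RANK activates, had the smallest p-values of this role. Nfkb1 differed by -0.21 on the log2 scale (limma adjusted p = 0.0859) and Relb by -0.25 (limma adjusted p = 0.135). Nfkb1 was called lower without Con replicate 2 (limma adjusted p = 0.0337). For Csf1, the gene of M-CSF, the difference was -0.05 (limma adjusted p = 0.587), and for its receptor gene Csf1r -0.21 (limma adjusted p = 0.19). Csf1r measured 1852 and 1638 CPM in Con against 1539 and 1477 CPM in Fat, and both Fat values lay below Con.

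Among 15 genes of ITAM co-receptors and calcium signalling, 1 rose and 1 fell by each of limma, edgeR and DESeq2. At an unadjusted limma p-value under 0.05, 1 was higher and 2 lower. Syk, the kinase that binds phosphorylated ITAMs, measured 402.5 and 382.8 CPM in Con against 502.2 and 468.6 CPM in Fat (log2 fold change 0.31, limma adjusted p = 0.0268). Fcer1g, which encodes the ITAM adaptor through which OSCAR signals, fell from 467.2 and 448.8 CPM to 383.9 and 364.5 CPM (log2 fold change -0.29, limma adjusted p = 0.0255). The Syk call was lost without Con replicate 2 (limma adjusted p = 0.0525) and without Fat replicate 1 (0.103). That of Fcer1g was lost without Con replicate 1 (limma adjusted p = 0.0669), without Fat replicate 2 (0.146) and with the TPM values (0.0899).

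Of 12 transcription factors that promote osteoclasts, 2 rose and 0 fell, and by limma at an unadjusted p-value under 0.05, 3 were higher and 1 lower. edgeR and DESeq2 also gave 2 and 0. Fos, the AP-1 subunit without which no osteoclasts form, measured 136.2 and 150.5 CPM in Con against 259.5 and 313.5 CPM in Fat. The groups were far apart, a difference of 0.99 on the log2 scale (limma adjusted p = 0.00328, standard error 0.09). Its relative Fosl2 had a log2 fold change of 0.41 (limma adjusted p = 0.0206, and 0.0566 without Fat replicate 2).

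Of 7 factors that restrain osteoclasts, 1 rose and 2 fell by limma. The counts were the same by edgeR, by DESeq2 and at an unadjusted limma p-value under 0.05. Irf8, which holds NFATc1 in check in precursors, measured 216.5 and 234.4 CPM in Con against 153.9 and 168.8 CPM in Fat (log2 fold change -0.48, limma adjusted p = 0.00825). Id2 had a log2 fold change of -0.38 (limma adjusted p = 0.017, and 0.0682 without Fat replicate 2). Bcl6, a repressor of Nfatc1, Ctsk and Dcstamp in osteoclasts, rose instead, from 29.4 and 32.0 CPM to 48.5 and 60.0 CPM (log2 fold change 0.81, limma adjusted p = 0.00611).

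Among the 10 further genes of cell fusion, 1 rose and 0 fell by limma, with 2 higher and 2 lower at an unadjusted p-value under 0.05. edgeR called 1 and 0, and DESeq2 2 and 1. The called gene was Adam8, a surface metalloprotease of fusing precursors, at 1380 and 1604 CPM in Con and 2169 and 2131 CPM in Fat (log2 fold change 0.53, limma adjusted p = 0.016). Of 12 genes of adhesion and the sealing zone, 2 rose and 0 fell by limma, edgeR called 2 and 0, DESeq2 4 and 0, and 6 were higher and 1 lower at an unadjusted limma p-value under 0.05. Beside Itgav this was Vav3, an exchange factor for Rac that acts downstream of the integrin, at 52.4 and 52.5 CPM in Con and 72.9 and 75.8 CPM in Fat (log2 fold change 0.50, limma adjusted p = 0.0044).

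Of 11 genes of acid and enzyme secretion, 1 rose and 1 fell by limma. edgeR called 1 higher and 1 lower, and DESeq2 0 higher and 2 lower. At an unadjusted limma p-value under 0.05, 2 were higher and 3 lower. Slc4a2, the chloride-bicarbonate exchanger that balances proton export, had a log2 fold change of 0.24 (limma adjusted p = 0.0425), and 10.2% of its windows are shared with Fastk on the opposite strand. Its call was lost with DESeq2 (adjusted p = 0.071), with the TPM values (limma adjusted p = 0.0516), without the filter (0.0507) and without any 1 of the 4 libraries (from 0.0536 without Con replicate 2 to 0.222 without Fat replicate 2). Mmp14, a membrane-bound collagenase, had a log2 fold change of -0.43 (limma adjusted p = 0.0198, and 0.0564 with the TPM values). Of 7 genes for signals from osteoclasts to bone-forming cells, 0 were called by limma or edgeR, DESeq2 called 1 higher, and 1 was higher and 1 lower at an unadjusted limma p-value under 0.05. Pdgfb, a growth factor made by osteoclast precursors, had a log2 fold change of 0.38 (limma adjusted p = 0.073, and 0.0261 by DESeq2), and Sema4d, which restrains osteoblasts, one of -0.14 (limma adjusted p = 0.169). Pdgfb was called by limma without Con replicate 2 (adjusted p = 0.015) and without Fat replicate 1 (0.0238).

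**Figure D4:**
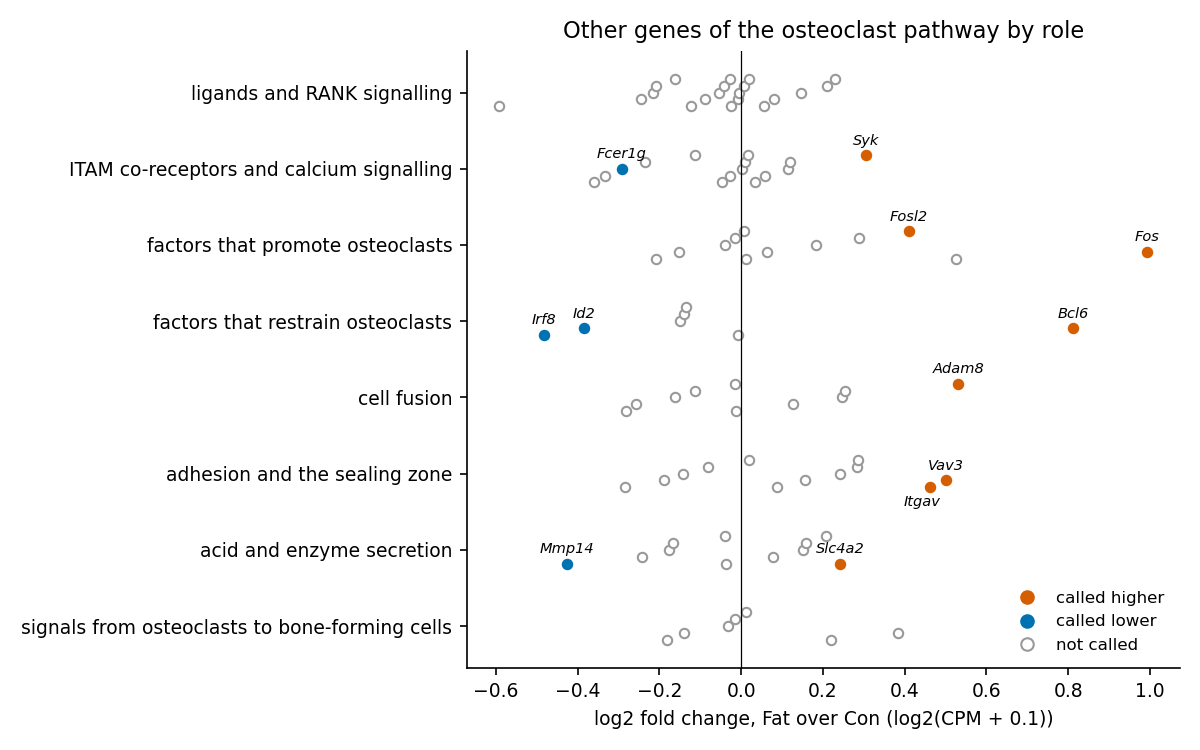
Log2 fold change of Fat over Con for the 94 tested genes of the wider osteoclast pathway, in 8 roles, orange where called higher, blue where called lower and open where not called. Fos lies farthest to the right at 0.99, and Irf8 at -0.48 is the called gene farthest to the left.

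**Figure D5:**
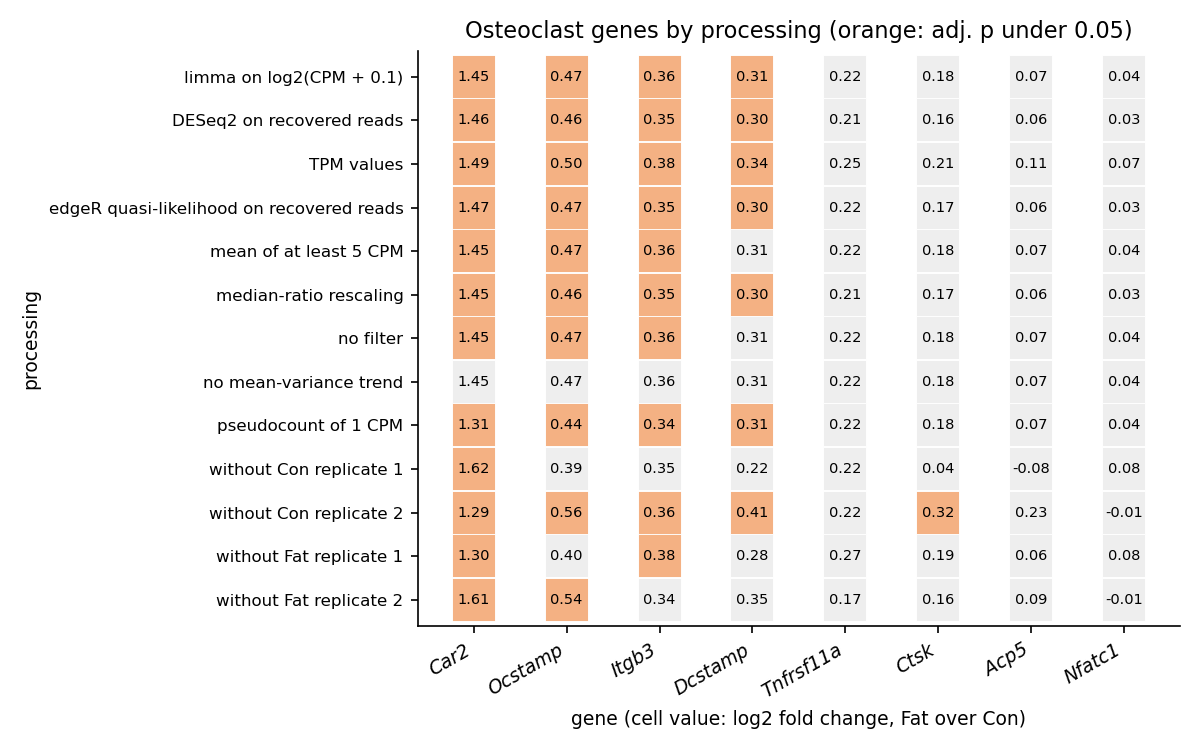
Log2 fold change of the 8 osteoclast genes (columns) under 13 ways of processing the values (lines), the replicate block left out, shaded orange where the adjusted p-value was under 0.05. Car2 is shaded everywhere but in the fit without the mean-variance trend. The calls of Ocstamp, Itgb3 and Dcstamp come and go with single libraries, and Tnfrsf11a, Acp5 and Nfatc1 are shaded nowhere.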

How the data were processed

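RNA was sequenced from 4 libraries, 2 from Con and 2 from Fat, grouped by the titles of their labels. Single reads of 75 bases were counted per gene by the authors and deposited as CPM and, with gene length accounted for, as TPM. The labels give the genome build GRCm39, and the aligner and counter are not given in the sources used here. The CPM values deposited by the authors include a scaling of 1.01, 0.990, 0.994 and 1.01 for Con 1, Con 2, Fat 1 and Fat 2, equal to edgeR's TMM factors. Whole reads were recovered from the smallest step of each library for 100% of values (tolerance 0.01 reads).

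Fat was compared with Con with limma 3.58.1 in R 4.3.3, with a mean-variance trend. Over all genes limma called 1122, the quasi-likelihood test of edgeR 4.0.16 called 1138 and DESeq2 1.42.0 called 1060, the last 2 on recovered reads. These tests were checked on simulated counts of well-read genes, with planted changes larger than that of any of the 10 genes. The check does not cover smaller changes. The 10 genes, the wider list and the marker lists were chosen with earlier results of these data known. Named beyond the 10 were, for each role, up to 3 called genes in each direction or, with no call, the 2 smallest p-values, the ligands, decoy and M-CSF receptor, and the 3 nearest profiles of Nfatc1 and of Ctsk. Of the windows of 75 bases in GENCODE vM21 transcripts, at most 4.63% were found in other genes for any of the 10. Alternatives were a pseudocount of 1 CPM, 2 other filters, the TPM values, median-ratio rescaling, the replicate number as a block, no trend and each library left out.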

Additional observations from a re-analysis of the deposited data

How the results depend on the processing

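The 8 tested osteoclast genes kept their direction under all 13 alternatives except Nfatc1 and Acp5. With each library left out, the log2 fold change of Nfatc1 lay between -0.00896 (without Fat replicate 2) and 0.0824 (without Fat replicate 1), and it was -0.00509 without Con replicate 2. That of Acp5 lay between -0.0818 (without Con replicate 1) and 0.229 (without Con replicate 2). Leaving out each library in turn gave between 1 and 5 calls higher in Fat among them and 0 lower, between 6 and 10 higher and between 2 and 7 lower in the wider list, and between 216 and 519 higher and between 313 and 612 lower over all genes. In such a fit the lone library is assumed to vary like the others. Without the mean-variance trend the calls were 0 of the osteoclast genes, 0 higher and 0 lower in the wider list, and 19 higher and 12 lower over all genes. With the TPM values 2 genes of the wider list and 366 of all genes were called lower. Deviations of libraries with the same number correlated at 0.20 over the tested genes, and no source says that the numbers pair them. With the replicate number as a block, 6 osteoclast genes were called higher (Tnfrsf11a and Ctsk besides), 17 higher and 13 lower in the wider list (of the named genes Pdgfb higher and Nfkb1 and Relb lower besides), and 1278 higher and 1242 lower over all genes. The median of the osteoclast genes lay between 0.20 and 0.34 under all alternatives. The 0.20 was without the filter, where Oscar and Calcr entered as well, and the next lowest was 0.22, without Con replicate 1. The median of the wider list lay between -0.03 and 0.02. Tnfsf11 and Tnfrsf11b have no value at a mean of at least 5 CPM, which they do not reach. Depth limits what can be said of Oscar and Calcr, at 12 and 2 reads in all.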
